A study of Homo sapiens with 8 samples.

Results

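The comparison described here is that of doxycycline-treated with untreated cells of a colon cancer line that carries an inducible hairpin against ASCL2. It holds 4 of the 8 libraries of the series, 2 untreated and 2 treated, chosen by the sample titles. All 4 come from derivatives of LS174T, an established human colon adenocarcinoma line, that overexpress the Tet repressor and carry, in a modified pTER vector, a short hairpin RNA against ASCL2 that is switched on by doxycycline. Untreated cells grew for 3 days in DMEM with serum, and treated cells grew for the same time with 1 ug/ml doxycycline added. The other 4 libraries are the same 2 conditions in an LS174T derivative with a hairpin against the long non-coding RNA WiNTRLINC1, and they enter here through the shared estimate of the spread and for the test of where the responses of both lines differ. The genotype entry of each sample names the other target than its title and source name do, and the groups follow the titles. No treated cells without a hairpin are in the series, so effects of doxycycline and of the hairpin cannot be told apart. Whether the 2 replicates of a group are separate cultures is not stated, so each p-value measures the spread between these libraries, which may be technical.

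ASCL2 is a basic helix-loop-helix transcription factor. Such factors bind DNA as pairs with the widely expressed E proteins TCF3, TCF4 and TCF12, and the ID proteins block this pairing. In the intestine ASCL2 is known as a target of Wnt signalling and as a factor of the stem cells at the crypt base, where LGR5, SMOC2 and the Eph receptors are also made. LS174T cells carry an activated Wnt pathway and have served as a model of the crypt progenitor.

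The unit of the files is a whole number per gene that is a scaled read count, called the value below. Deposited totals ran from 21524463 to 22941231 per library over the 4 libraries. Of 57736 listed genes, 39142 were above 0 in any of the 4 libraries. Those that reached 10 in 2 or more of the 4 were tested, which were 20470. There were 423 genes whose second highest value was exactly 10, just inside this rule, and 333 at 9, just outside. Across 13170 genes averaging 100 or more over these 4 libraries, the log2 values of the replicates correlated with r = 0.992 in untreated and 0.995 in treated cells, and the log2 difference between replicates had an SD of 0.208 and 0.174. Of 12 colon epithelial markers all were tested, 1 rose, 7 fell and 4 did not pass, and the keratins KRT8 and KRT18 were at 51706 or more in all 4 libraries. The summed values of 8 immune markers (77 to 124), of 8 fibroblast markers (192 to 318) and of 5 endothelial markers (14 to 45) were low beside the epithelial sum of 217492 to 252480. The fibroblast sum was 314 and 318 untreated and 192 and 196 treated, of which the collagen COL1A1 made up 200 and 222 untreated and 60 and 99 treated, and the defining markers DCN, LUM and THY1 were at 6 or less in each library. These are bulk values, so fewer cells of a kind and less RNA per cell cannot be told apart.

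ASCL2 (ENSG00000183734, chromosome 11) was measured at 2855 and 3373 in the untreated libraries and at 532 and 586 in the treated ones. The groups did not overlap. This was a 5.55-fold fall over 2 libraries per group, with a log2 fold change of -2.47 ± 0.117 (SE) and a limma adjusted p of 4.17e-09.

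Among the 20470 genes, 5938 (29%) passed an adjusted p of 0.05 in limma, of which 3126 (15.3%) rose and 2812 (13.7%) fell. A change of at least 2-fold was called for 951 genes (4.65%), 369 upward (1.8%) and 582 downward (2.84%), and of at least 4-fold for 47 upward and 83 downward. Treated and untreated values did not overlap for 12991 genes (63.5%). The median log2 fold change of all genes tested was 0.01, with quartiles at -0.29 and 0.29. Most of the 5938 called changes were under 2-fold. Without the second treated library 3737 genes were called, and 3950 without a mean-variance trend. The share called differed by abundance: 6.71% of the genes with a mean value under 30 were called, against 53.9% of those at 5000 or more. Between these it was 14.2% at 30 to 100, 33.3% at 100 to 1000 and 47.5% at 1000 to 5000. These shares are the background for every count of list members below.

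**Figure D1:**
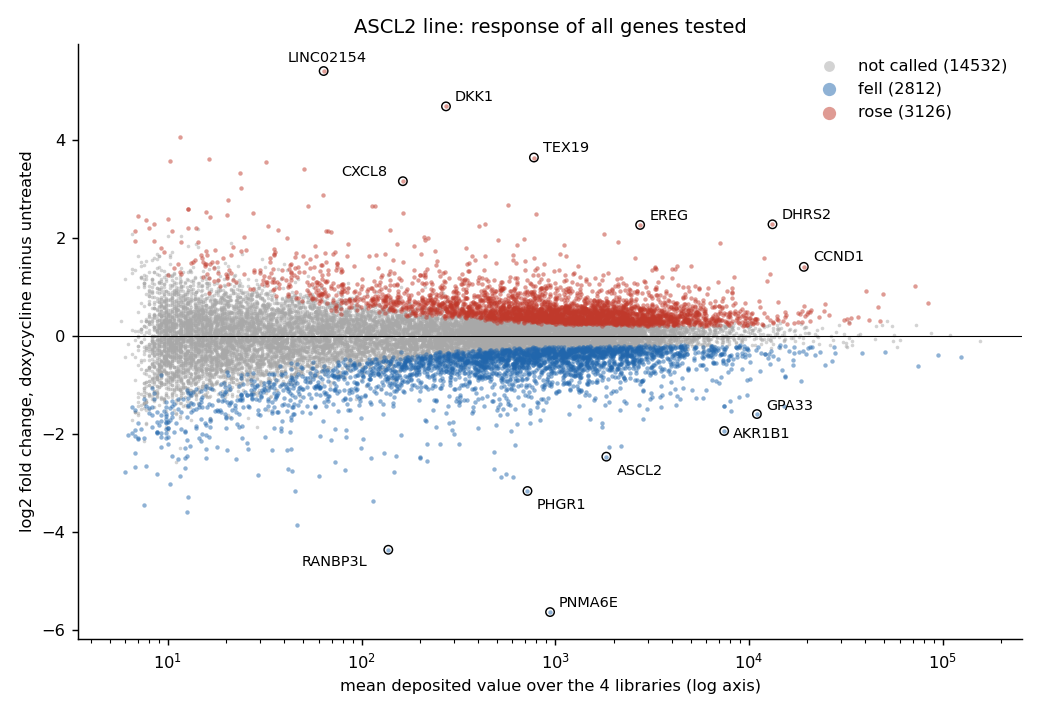
Log2 fold change (doxycycline minus untreated, on the log2 of value + 1) of each of the 20470 genes tested against its mean value over the 4 libraries on a log axis. Red points rose (3126), blue points fell (2812) and grey points were not called, and circled genes are named in the text. ASCL2 lies at -2.47, PNMA6E at -5.64 and LINC02154 at 5.40.

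Where the mean value was 100 or more, the largest rises included a Wnt inhibitor, 2 chemokines and a growth factor. DKK1, the secreted antagonist of the Wnt co-receptor LRP6, was at 45 and 8 untreated and at 529 and 510 treated. The untreated values were low and far apart, and both treated values lay above them (25.6-fold, log2 fold change 4.68 ± 0.60 SE, limma adjusted p = 4.38e-05). The log2 fold change of DKK1 was 5.85 without the first and 3.50 without the second untreated library. TEX19, a gene known from germ cells, was at 114 and 116 untreated and at 1448 and 1428 treated, a 12.4-fold rise (limma adjusted p = 4.75e-09). CXCL8, the neutrophil chemokine interleukin 8, went from 43 and 24 to 287 and 300 (8.88-fold, limma adjusted p = 3.09e-05). The related CXCL1 went from 174 and 138 to 952 and 1018 (6.32-fold). HMGA2, an architectural chromatin protein of embryonic and tumour cells, was at 229 and 255 untreated and at 1369 and 1334 treated (5.57-fold). In each of these genes the replicates of a group were closer to each other than to the other group. Only genes without overlap between groups could be chosen here, which favours this.

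DHRS2, a short-chain dehydrogenase, was at 4303 and 4796 untreated and 21131 and 22725 treated (4.82-fold, limma adjusted p = 5.43e-10). EREG, the EGF receptor ligand epiregulin, was at 839 and 1068 untreated and 4274 and 4797 treated (4.78-fold). CCR2, a chemokine receptor, rose 4.84-fold from 149 and 145 to 664 and 770. TDO2, the first enzyme of tryptophan breakdown, rose 6.22-fold and LAMA4, a laminin chain, 5.65-fold, both from 55 or less to 189 or more.

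The largest falls were of PNMA6E, RANBP3L and PTGS1. PNMA6E was at 1749 and 1942 untreated and at 39 and 33 treated (50.0-fold, limma adjusted p = 6.62e-13). It belongs to a family of similar genes on the X chromosome, so the assignment of its reads is uncertain. RANBP3L, a Ran-binding protein, went from 284 and 240 to 19 and 7 (20.7-fold, limma adjusted p = 0.000309). Its log2 fold change of -4.37 became -5.03 without the first and -3.71 without the second treated library. PTGS1, the constitutive cyclooxygenase COX-1, went from 248 and 172 to 21 and 17 (10.4-fold). PHGR1, which is made in intestinal epithelium, was at 1279 and 1312 untreated and at 152 and 134 treated (9.02-fold). SMOC2, a matricellular protein of crypt stem cells, was at 953 and 997 untreated and at 135 and 137 treated (7.12-fold, limma adjusted p = 1e-10). For PHGR1 and SMOC2 the replicates were nearly alike within each group.

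The remaining 5 of the 10 largest falls were ADGRB1, an adhesion G protein-coupled receptor (7.42-fold), GRAMD1B, which moves cholesterol between membranes (7.37-fold), IGFBP3 (6.85-fold), PCK1 (6.65-fold) and FHL1 (5.86-fold). Their untreated values lay between 256 and 1150 and their treated values between 35 and 149.

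**Figure D2:**
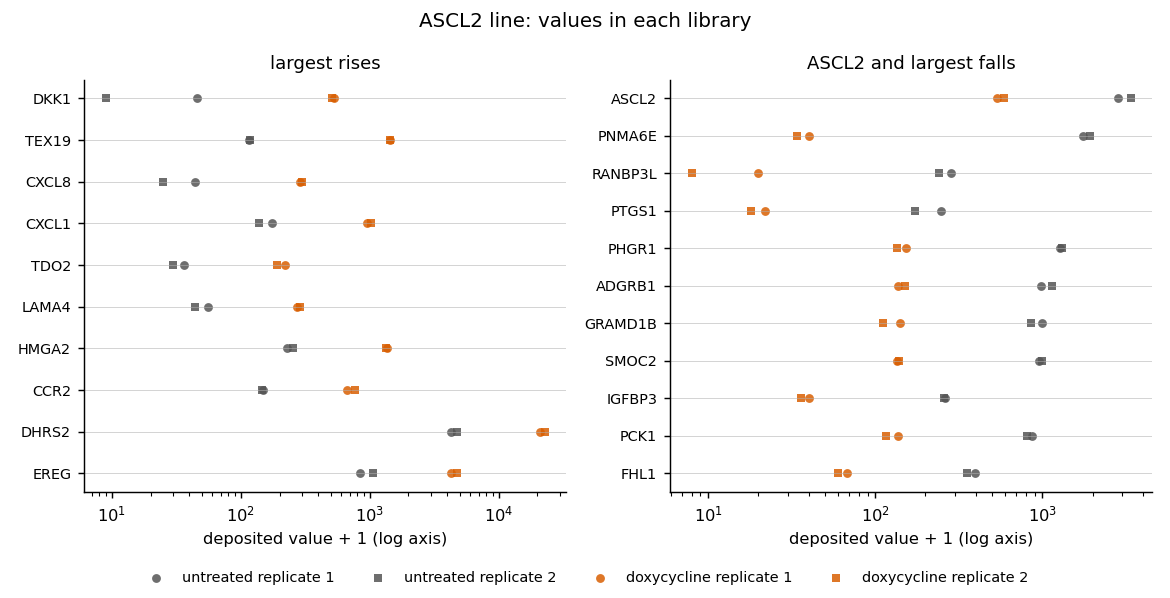
Value + 1 on a log axis in each of the 4 libraries for the 10 largest rises (left) and for ASCL2 and the 10 largest falls (right) among genes averaging 100 or more. Grey marks are untreated and orange marks doxycycline-treated cells, circles replicate 1 and squares replicate 2. In all 21 genes the grey and orange marks are apart, which the choice of genes required for all but ASCL2.

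Where the mean value was 5000 or more, the largest rises after DHRS2 were CLDN2, a pore-forming tight junction claudin (2668 and 3397 untreated, 10695 and 11658 treated, 3.71-fold), and HMGCS1, the cytosolic HMG-CoA synthase (2.98-fold). DCBLD2, CCND1 and TMSB4X rose between 2.39-fold and 2.67-fold, and the ferritin light chain pseudogene FTLP3 rose 2.16-fold, although its reads may not have been told apart from those of its parent gene. The largest falls in this class were AKR1B1, aldose reductase (12956 and 10747 untreated, 3135 and 2978 treated, 3.86-fold), and GPA33, the colon epithelial surface antigen A33 (16414 and 16693 untreated, 5450 in both treated libraries, 3.04-fold). RAN, the nuclear transport GTPase, was at 11990 and 11986 untreated and at 4101 and 4113 treated (2.92-fold). RAN has processed pseudogenes, so its level may be uncertain. EPHB3, PAQR8, the junction protein plakoglobin (JUP) and NUPR1 fell between 2.42-fold and 2.71-fold.

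Genes of DNA replication fell together. The list holds the E2F factors, which turn on S-phase genes, the proteins that license origins, the MCM helicase, the polymerases and the enzymes that supply nucleotides. Of 48 tested members 33 fell, none rose and 15 did not pass, and the median log2 fold change was -0.33 beside 0.01 for all genes tested. Promoters of 3 members that fell are shown, as 200 bases before the RefSeq start on GRCh38.p14, because they hold letters of the E2F site, which are in capitals. The letters searched were TTTCCCGC, TTTGGCGC, TTTCGCGC and TTTGCCGC on both strands.
E2F1 (chr20:33686386-33686585, minus strand): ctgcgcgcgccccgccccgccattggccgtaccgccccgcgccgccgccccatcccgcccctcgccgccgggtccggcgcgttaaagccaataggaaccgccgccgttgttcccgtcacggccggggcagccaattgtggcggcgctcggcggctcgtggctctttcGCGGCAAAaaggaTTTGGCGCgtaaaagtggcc
MCM3 (chr6:52284743-52284942, minus strand): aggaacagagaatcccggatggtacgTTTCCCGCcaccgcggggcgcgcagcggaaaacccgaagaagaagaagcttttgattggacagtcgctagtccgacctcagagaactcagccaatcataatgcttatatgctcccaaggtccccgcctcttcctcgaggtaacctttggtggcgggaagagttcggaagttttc
POLA1 (chrX:24693718-24693917, plus strand): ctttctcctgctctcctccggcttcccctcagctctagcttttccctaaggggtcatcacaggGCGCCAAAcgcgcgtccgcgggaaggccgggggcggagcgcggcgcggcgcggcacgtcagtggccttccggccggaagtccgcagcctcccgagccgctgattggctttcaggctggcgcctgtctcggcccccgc

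In the window from 250 bases before to 50 after the start, E2F letters were found in 20 of the 41 replication members with a promoter in the table (48.8%), in 5.04% of the 11686 tested genes with a promoter and in 3.33% of all 27305 promoters of the table. The letters were also found in members that did not pass, among them E2F2, CDC6 and POLE. Over all genes that fell at least 2-fold the share was 4.52%, and over those that rose at least 2-fold it was 1.71%. A match of letters is a description and not a shown binding site.

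E2F1 was at 1613 and 1630 untreated and at 755 in both treated libraries, a 2.15-fold fall (limma adjusted p = 8.06e-07). E2F8, a repressor of the same family, fell 1.54-fold, whereas E2F2 (1065 and 982 against 916 and 911) and E2F7 did not pass. Of the 12 members of the replicative helicase group 9 fell. MCM3, one subunit of the helicase, was at 12796 and 12261 untreated and at 5355 and 5147 treated (2.39-fold, limma adjusted p = 1.34e-08). The other subunits moved less, from 1.14-fold for MCM7 (9601 and 9617 against 8359 and 8517) to 1.54-fold for MCM5, and the MCM7 call was lost when any of the 4 libraries was left out (limma adjusted p 0.112 to 0.161). The loading factors CDC6 (1200 and 1055 against 1125 and 975) and ORC6 did not pass.

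For the polymerases, 6 of 13 members fell. POLA1 and POLA2, subunits of the polymerase that makes primers with primase, fell 1.86-fold and 1.78-fold, with POLA1 at 914 and 928 untreated and 535 and 457 treated. POLE, the leading strand polymerase, was at 2316 and 2356 untreated and 2216 and 2332 treated and did not pass. FEN1, the flap endonuclease that trims Okazaki fragments, was at 4866 and 4091 untreated and at 1957 and 1776 treated (2.39-fold, limma adjusted p = 1.23e-07). In nucleotide supply 6 of 7 members fell, with TYMS, thymidylate synthase, from 2675 and 2480 to 1182 and 1016 (2.35-fold) and TK1, thymidine kinase, 1.78-fold. RRM1, the large subunit of ribonucleotide reductase, fell 1.34-fold. All 4 tested chromatin assembly members fell, CHAF1B 1.51-fold and the histone chaperone ASF1B 1.52-fold among them.

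Genes of mitosis fell as well, in 29 of 34 tested members, with 1 rise and 4 that did not pass (median log2 fold change -0.44). Of the kinases, PLK1, which drives spindle assembly, was at 4575 and 4251 untreated and at 2713 and 2772 treated (1.61-fold, limma adjusted p = 8.39e-06). BUB1B of the spindle checkpoint fell 1.67-fold and AURKA 1.32-fold, while TTK did not pass. All 9 members of the cyclin and activator group were called. CCNB1, cyclin B1, was at 3182 and 3022 untreated and 1928 and 1993 treated (1.58-fold). FOXM1, a transcription factor of G2 genes, fell 1.65-fold, CDC20, the activator of the anaphase-promoting complex, 1.68-fold, and the phosphatase CDC25C 1.79-fold. CDC25B, a phosphatase of the same family, went the other way, from 6079 and 5956 to 10120 and 10445 (1.71-fold higher, limma adjusted p = 1.64e-06). Its untreated and treated values were wide apart, and 1 member of the list rose in each of the 16 alternatives too. Survivin (BIRC5) fell 1.60-fold, while KIF23 (605 and 682 against 685 and 649) did not pass.

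Promoters of CDC20 and PLK1 are shown because they hold the letters TTTGAA of the cell cycle homology region (CHR), in capitals on either strand, over the 200 bases before the start on GRCh38.p14.
CDC20 (chr1:43358781-43358980, plus strand): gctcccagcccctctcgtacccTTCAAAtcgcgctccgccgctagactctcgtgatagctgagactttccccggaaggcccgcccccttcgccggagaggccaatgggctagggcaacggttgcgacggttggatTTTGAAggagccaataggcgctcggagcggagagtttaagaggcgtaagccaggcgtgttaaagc
PLK1 (chr16:23678689-23678888, plus strand): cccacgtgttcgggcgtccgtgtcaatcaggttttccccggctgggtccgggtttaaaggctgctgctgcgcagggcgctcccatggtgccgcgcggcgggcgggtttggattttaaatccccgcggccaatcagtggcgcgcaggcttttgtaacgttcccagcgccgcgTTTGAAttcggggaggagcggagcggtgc

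CHR letters were found in 16 of 28 mitosis promoters (57.1%) and in 10.0% of the promoters of all genes tested. Their share was 12.7% over all genes that fell at least 2-fold and 13.7% over those that rose at least 2-fold. The letters CCAAT, searched on both strands, were found in 20 of the 28 mitosis promoters (71.4%, against 36.7% of all genes tested). Among the replication members the CHR share was 4.88% and among the mitosis members the E2F share was 7.14%. Without a mean-variance trend in the fit, 20 replication members and 18 mitosis members fell, and no replication member rose in any of the 16 alternatives.

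**Figure D3:**
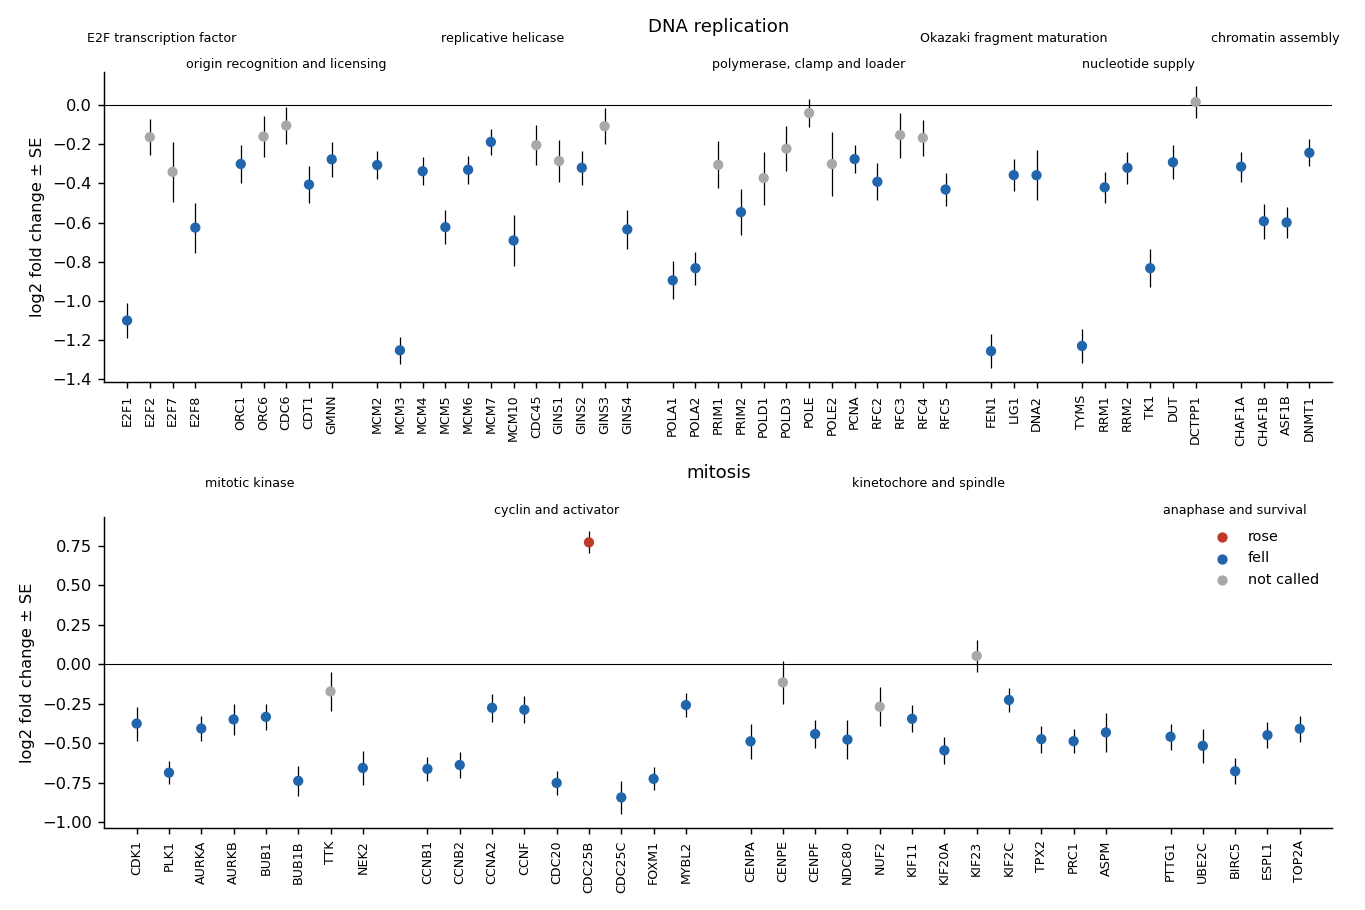
Log2 fold change with its SE for 47 of the 48 tested members of DNA replication (top) and the 34 of mitosis (bottom), grouped by role. Blue points fell, red points rose and grey points were not called, and the point of CDC25B alone is red.

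The stem cell and Wnt list moved in both directions. Of 27 tested members 6 rose, 11 fell and 10 did not pass (median log2 fold change -0.30), and 7 more were below the rule. LGR5, the R-spondin receptor that marks crypt stem cells, was at 553 and 589 untreated and at 339 and 296 treated (1.80-fold lower, limma adjusted p = 9.12e-06). LGR4, its more widely made relative, was at 1214 and 1317 untreated and at 2051 and 1813 treated, a 1.52-fold rise. The 2 related receptors thus changed in opposite directions, each without overlap between groups. LRIG1, a negative regulator of ERBB receptors, rose 1.34-fold. Of the 6 tested surface receptors in this list 3 rose and 3 fell. The stem cell markers OLFM4 and PROM1 were at 8 or less in every library.

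Among transcription factors, SOX9 was at 14800 and 14193 untreated and 11442 and 11902 treated (1.24-fold lower), and MYC, a Wnt target, was at 4824 and 4927 untreated and 7410 and 8135 treated (1.59-fold higher, limma adjusted p = 7.11e-06). ZBTB7C rose 1.46-fold, and TCF7, TCF7L2 and SP5 did not pass. Wnt feedback inhibitors were divided too. AXIN2, a scaffold of the complex that degrades beta-catenin, went from 3814 and 3793 to 2378 and 2474 (1.57-fold lower), and APCDD1, a membrane inhibitor of Wnt, from 46 and 51 to 14 and 21 (2.72-fold lower). NKD1 (1743 and 1750 against 1505 and 1595) and the ubiquitin ligase ZNRF3 did not pass, and DKK1 rose as described above. SLC12A2, the sodium, potassium and chloride cotransporter of crypt cells, fell 1.97-fold from 8958 and 9547 to 4959 and 4453.

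Eph receptors and ephrins keep crypt and villus cells apart by contact repulsion. In 17 tested members, 3 rose, 2 fell and 12 did not pass. The share called was 29.4%, near the 29% of all genes tested. The 2 that fell were the crypt receptors EPHB3 (11343 and 10518 untreated, 4048 and 4019 treated, 2.71-fold, limma adjusted p = 1.22e-08) and EPHB2 (6237 and 5996 untreated, 4145 and 4569 treated, 1.41-fold). Their ligand EFNB2 rose 1.36-fold, from 2521 and 2277 to 3237 and 3285, and EPHA2, which is induced by growth factors, rose 1.71-fold. EPHB4 and EFNB1 did not pass.

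Of the bHLH factors, 6 of 19 tested members rose and 5 fell. Of the E proteins, partners of ASCL2, TCF4 and TCF12 did not pass (TCF12 at 2265 and 2414 untreated and 2208 and 2338 treated). TCF3 was at 3564 and 3472 untreated and 4056 and 4002 treated and rose 1.15-fold (limma adjusted p = 0.0463), a call that was lost when any of the 4 libraries was left out (limma adjusted p 0.092 to 0.164) and in 6 other alternatives. ID3 was at 16322 and 14642 untreated and at 9992 and 10716 treated (1.49-fold lower, limma adjusted p = 8.58e-05), while ID1 did not pass. ID2 was at 5754 and 5469 untreated and 6644 and 7812 treated and rose 1.28-fold (limma adjusted p = 0.00591), a call lost without the second treated library (limma adjusted p = 0.105) and without a mean-variance trend (limma adjusted p = 0.0767). ATOH8 went from 378 and 307 to 60 and 58 (5.70-fold lower). ATOH1, the factor that sets the secretory fate, was at 27 and 20 untreated and at 3 and 0 treated, and passed the rule only through its untreated values. BHLHE41 rose 1.44-fold. The counts of this list were sensitive to single libraries, with 3 rises without either treated library and 3 falls without the first library of either group.

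Genes of EGF receptor and ERK signalling rose. Ligands of the EGF receptor activate RAS and ERK, ERK turns on immediate early factors, and the DUSP phosphatases and Sproutys are induced as feedback inhibitors. Of 42 tested members 23 rose, none fell and 19 did not pass, and the median log2 fold change was 0.55 beside 0.01 for all genes tested. Over the 16 alternatives the number that rose lay between 21 and 25. Ligands rose in 4 of 6 cases. TGFA was at 476 and 505 untreated and 1157 and 1138 treated (2.34-fold), AREG, amphiregulin, at 87 and 107 untreated and 283 and 338 treated (3.18-fold), and HBEGF at 91 and 156 untreated and 225 and 358 treated (2.37-fold), beside EREG as given above. EGF (101 and 116 against 125 and 140) and BTC did not pass. The receptor EGFR rose 1.45-fold from 2999 and 2968 to 4301 and 4362, whereas ERBB2 and ERBB3 did not pass.

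Of the 7 ERK phosphatases 6 rose. DUSP6, the cytosolic ERK phosphatase, was at 4119 and 4694 untreated and 8979 and 9832 treated (2.14-fold, limma adjusted p = 2.42e-07), and DUSP5, its nuclear counterpart, at 288 and 266 untreated and 994 and 1205 treated (3.94-fold). DUSP4 rose 1.91-fold, and SPRY4, a Sprouty inhibitor, 1.82-fold, while SPRY1 and SPRED1 did not pass. EGR1, an immediate early zinc finger factor, was at 569 and 808 untreated and 2489 and 3268 treated (4.20-fold, limma adjusted p = 1.5e-06). FOSL1, the AP-1 subunit FRA1, was at 403 and 373 untreated and 1152 and 1186 treated (3.01-fold), and JUN rose 2.34-fold and JUND 1.71-fold. The AP-1 subunits FOS (406 and 455 against 478 and 413) and FOSL2 (1634 and 1603 against 1621 and 1611) did not pass, nor did the factors ETV4 and ETV5. CCND1, cyclin D1, which opens the G1 phase, was at 10689 and 10423 untreated and 27397 and 28378 treated (2.64-fold, limma adjusted p = 7.35e-09).

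Chemokine genes rose too. In the list of chemokines and NF-kB genes 13 of 27 tested members rose, 2 fell and 12 did not pass (median log2 fold change 0.45). Of 8 tested chemokines 5 rose. Besides CXCL8 and CXCL1, CXCL2 went from 23 and 28 to 112 and 114 (4.32-fold), CXCL3 from 118 and 120 to 271 and 289 (2.34-fold), and CCL20, which attracts cells with the receptor CCR6, from 18 and 11 to 92 and 131 (7.34-fold). Treated values lay above untreated values in each of these. CXCL16 did not pass. Of 5 NF-kB subunits 2 rose, NFKB1 fell 1.25-fold, and 2 did not pass, among them RELA (2779 and 2547 against 2766 and 3052). Of 6 NF-kB inhibitors 1 rose and 5 did not pass, among them NFKBIA (1578 and 1271 against 1338 and 1078). ICAM1, an adhesion molecule, rose 1.94-fold from 1296 and 1369 to 2443 and 2742, IL32 1.62-fold and LCN2 1.49-fold. Without either second library 9 members rose, and 1 rather than 2 fell without the first untreated or the second treated library.

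**Figure D4:**
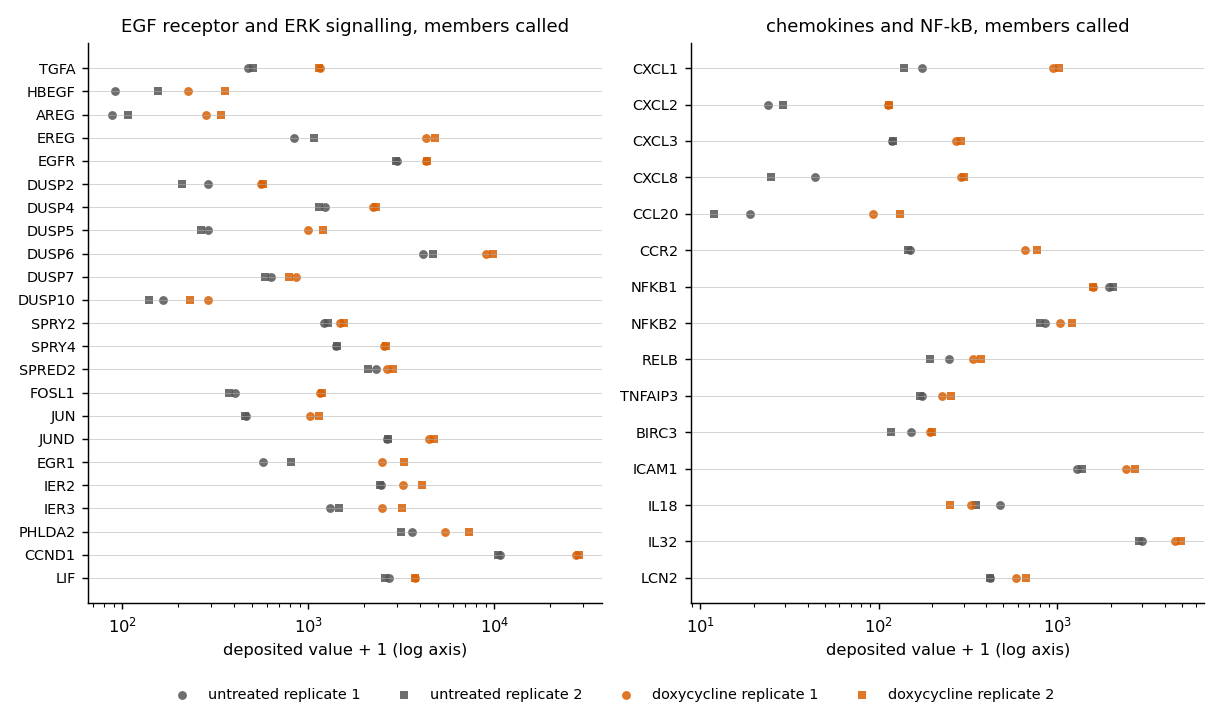
Value + 1 on a log axis in each of the 4 libraries for the called members of EGF receptor and ERK signalling (left, 23 genes) and of chemokines and NF-kB (right, 15 genes). Grey marks are untreated and orange marks treated cells, and every gene on the left has both orange marks above both grey marks. Among all 5938 called genes the groups overlapped in only 2.

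Promoters of CXCL8 and PLAUR, the urokinase receptor that rose 2.15-fold from 180 and 158 to 353 and 374, are shown because they hold the AP-1 letters TGANTCA, in capitals, in the 200 bases before the start on GRCh38.p14.
CXCL8 (chr4:73740369-73740568, plus strand): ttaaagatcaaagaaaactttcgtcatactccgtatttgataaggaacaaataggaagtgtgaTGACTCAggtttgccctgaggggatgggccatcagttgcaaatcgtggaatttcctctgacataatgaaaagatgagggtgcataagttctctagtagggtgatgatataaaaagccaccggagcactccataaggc
PLAUR (chr19:43670170-43670369, minus strand): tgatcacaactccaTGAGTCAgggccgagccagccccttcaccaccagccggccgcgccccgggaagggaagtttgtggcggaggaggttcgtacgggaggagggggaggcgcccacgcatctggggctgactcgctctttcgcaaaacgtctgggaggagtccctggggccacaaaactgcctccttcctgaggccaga

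AP-1 letters were found in 23 of the 175 promoters of genes that rose at least 2-fold (13.1%), in 17 of 332 of genes that fell at least 2-fold (5.12%), in 4.65% of those of all genes tested and in 7.76% of the whole table. The E box CAGCTG was found in 13.7% of the promoters of genes that rose at least 2-fold, in 19.0% of those that fell at least 2-fold and in 17.0% of all tested. Shares of CTTTGA, the core letters of the TCF site, were 12.0%, 11.4% and 8.91% in the same order. These shares are descriptions without a test.

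In the IGF system 6 of 16 tested members rose and 3 fell. IGFBP3, a secreted binding protein of insulin-like growth factors, was at 262 and 256 untreated and 39 and 35 treated, and IGFBP4 fell 1.49-fold from 2481 and 2342 to 1657 and 1573. IRS2, the insulin receptor substrate, fell 2.25-fold from 2796 and 2605 to 1261 and 1140, whereas IRS1 did not pass and the receptors IGF1R and INSR rose 1.41-fold and 1.40-fold. The mRNA-binding proteins IGF2BP2 (1.45-fold) and IGF2BP3 (316 and 406 untreated, 716 and 676 treated, 1.94-fold) rose. HMGA1 rose 1.36-fold beside the larger rise of HMGA2, and LIN28A and LIN28B were at 11 or less in each library.

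All 6 metallothioneins that could be tested fell, and 5 others were below the rule. Of 4 genes of zinc transport and sensing in the same list 2 rose, which became 1 without the second untreated and 0 without the second treated library. These small proteins bind zinc and copper, and their genes are similar enough that reads may be divided among them. MT2A was at 1827 and 1725 untreated and 545 and 624 treated (3.04-fold, limma adjusted p = 2.88e-06), MT1G at 1017 and 1182 untreated and 369 and 398 treated (2.86-fold), and MT1X, MT1F and MT1E fell between 1.98-fold and 3.64-fold. Their activator MTF1 did not pass (660 and 707 against 635 and 631). The call of MT1H (35 and 52 untreated, 19 and 20 treated) was lost without the second untreated library (limma adjusted p = 0.0719).

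Of 15 tested antigen presentation genes 4 rose, 6 fell and 5 did not pass. CD74, the invariant chain of class II molecules, went from 185 and 196 to 33 and 33 (5.63-fold lower, limma adjusted p = 3.61e-08) and HLA-DMA from 192 and 217 to 106 and 92 (2.06-fold lower). The class II chain genes themselves were below the rule. TAP2, a peptide transporter subunit, fell 2.54-fold from 444 and 475 to 187 and 173, and PSMB9, an immunoproteasome subunit, 2.25-fold, while TAP1 (3098 and 2823 against 3383 and 3448) did not pass. HLA-E fell 1.41-fold, and HLA-B did not pass. HLA-C, B2M and NLRC5 rose by 1.25-fold or less, and no member of the list rose without the second treated library or without a trend. Members that rose numbered 2 without the first library of either group and 1 without the second untreated library.

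In matrix and integrin genes 18 of 48 tested members rose, 6 fell and 24 did not pass (median log2 fold change 0.16). HSPG2, the basement membrane proteoglycan perlecan, was at 1851 and 1777 untreated and 4730 and 4750 treated (2.61-fold, limma adjusted p = 1.46e-08). LAMC1, the common laminin gamma chain, rose 2.34-fold from 1110 and 997 to 2465 and 2461. Of the 8 laminin chains in this list, which leaves out LAMA4, 3 rose, 2 fell and 3 did not pass. Their log2 fold changes ran from -1.55 to 1.23. Of 11 integrin chains 6 rose and none fell, ITGA2 by 1.77-fold, ITGB4 by 1.50-fold and ITGB1 by 1.36-fold, and ITGA6 and ITGAV did not pass. BGN, the proteoglycan biglycan, was at 56 and 48 untreated and 5 and 8 treated, and passed the rule only through its untreated values. The number that fell was 3 in the fit of these 4 libraries alone.

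Genes of enterocyte metabolism and of the brush border rose in 8 and fell in 8 of 33 tested members, and 20 more were below the rule. Of the brush border enzymes, DPP4, dipeptidyl peptidase 4, was at 416 and 487 untreated and 1172 and 1165 treated (2.59-fold, limma adjusted p = 1.69e-07). ANPEP, aminopeptidase N, went from 186 and 205 to 455 and 475 (2.37-fold) and ALPI, intestinal alkaline phosphatase, from 20 and 28 to 98 and 117 (4.38-fold). PCK1, the gluconeogenesis enzyme PEPCK, was at 871 and 806 untreated and 136 and 115 treated, while its mitochondrial form PCK2 did not pass (3237 and 3598 against 3075 and 3915). Among microvillus proteins EPS8 and USH1C rose 1.46-fold and 1.45-fold, and CDHR5 and EPS8L3 fell 1.66-fold and 1.43-fold. Markers of mature colonocytes such as CA1, CA2, SLC26A3 and AQP8 were at 5 or less in all 4 libraries. Without the first untreated or the second treated library 5 members fell.

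In the secretory lineage 12 of 35 tested members fell, 4 rose and 19 did not pass (median log2 fold change -0.24). MUC13, a membrane mucin, was at 5898 and 5787 untreated and 3033 and 3335 treated (1.84-fold, limma adjusted p = 6.64e-07). MUC5B fell 1.57-fold, and the gastric type mucin MUC5AC did not pass. ST6GALNAC1, a sialyltransferase of mucin sugars, fell 1.70-fold, the trefoil peptide TFF2 1.57-fold and the factor CREB3L1 2.35-fold. GCNT3, another mucin glycosyltransferase, rose 1.45-fold, and AGR2 and TFF1 did not pass. Without the first untreated library 7 members fell.

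Intestinal transcription factors rose in 9 and fell in 10 of 32 tested members. CDX2, the master factor of intestinal identity, was at 4409 and 3787 untreated and 2241 and 2612 treated (1.69-fold lower, limma adjusted p = 2.14e-05), and CDX1 fell 1.43-fold. HNF4A and GATA6 did not pass, with HNF4A at 3471 and 2906 untreated and 2893 and 3196 treated. The epithelial ETS factors EHF (6365 and 6082 untreated, 3118 and 2814 treated, 2.10-fold) and ELF3 (2.01-fold) fell. KLF6 rose 2.56-fold from 2309 and 2204 to 5699 and 5845 and MYCN 2.27-fold, while KLF5 and HOXB13 did not pass. FOXA1 fell 1.35-fold and its relative FOXA2 rose 1.44-fold. Without the second treated library 5 of the factors rose. Epithelial markers used for the check of the cells also fell, CDH17 from 5193 and 4259 to 2363 and 2248 and GPA33 as given above, whereas EPCAM and CDH1 did not pass.

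Genes of sterol and fatty acid synthesis rose in 20 and fell in 4 of 38 tested members (median log2 fold change 0.22). In this pathway HMGCS1 acts at the start of the mevalonate chain, and SQLE and the later steps make cholesterol. HMGCS1 was at 5901 and 6103 untreated and 19264 and 16575 treated (2.98-fold, limma adjusted p = 6.64e-09). MSMO1 went from 1768 and 1804 to 4617 and 4382 (2.52-fold) and SQLE from 1823 and 1887 to 4092 and 3794 (2.12-fold). NPC1L1, the intestinal sterol transporter, rose 3.98-fold from 10 and 24 to 67 and 63. The log2 fold change of NPC1L1 was 1.40 without the first and 2.58 without the second untreated library, and 1.99 with both. The sterol reductase TM7SF2 and the isomerase EBP fell 1.64-fold and 1.32-fold. Of 7 genes of sterol uptake and efflux, NPC1L1 among them, 3 rose, 1 fell and 3 did not pass. Their log2 fold changes ran from -1.40 to 1.99. INSIG1, a feedback regulator and a target of the same SREBP factors, did not pass (3906 and 4060 against 4173 and 3823). The number that fell was 2 without the second treated library.

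**Figure D5:**
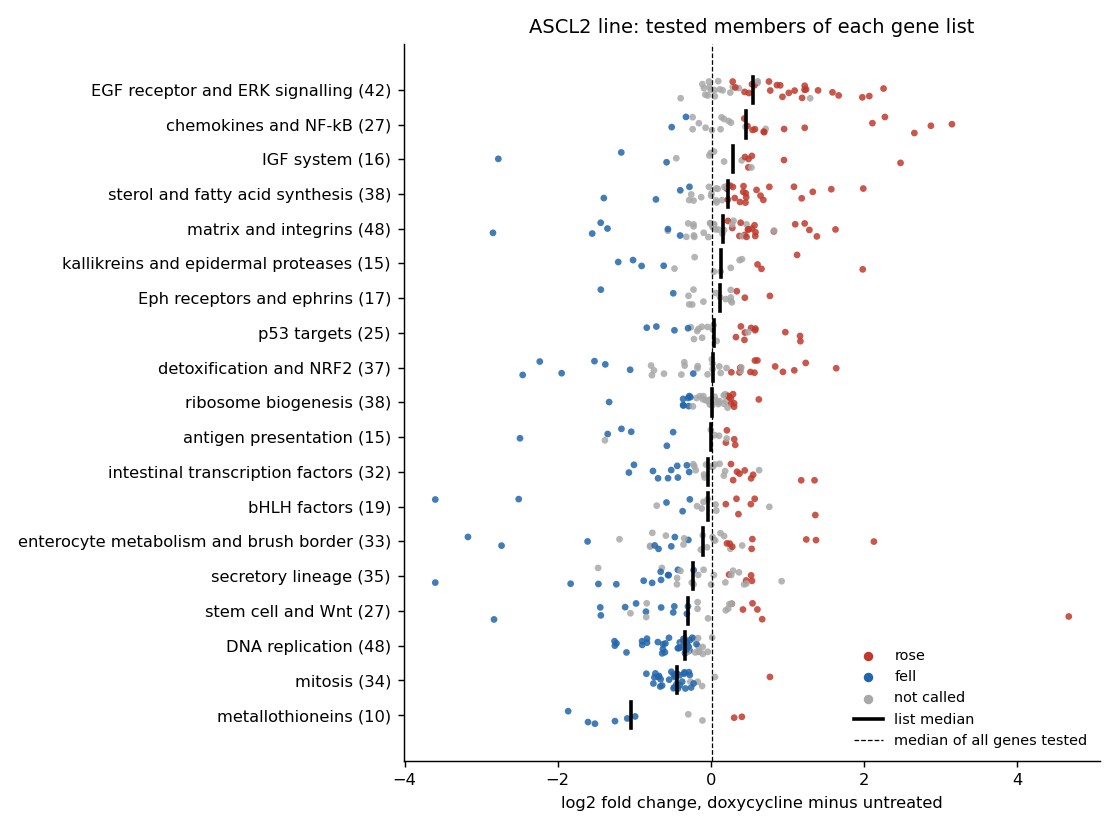
Log2 fold change of the tested members of each of the 19 gene lists, with the number tested in brackets. Red points rose, blue points fell and grey points were not called, black bars are list medians (from -1.04 for metallothioneins to 0.55 for EGF receptor and ERK signalling), and the dashed line is the median of all genes tested (0.01).

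In p53 targets 10 of 25 tested members rose and 4 fell. CDKN1A, the cyclin-dependent kinase inhibitor p21, was at 5866 and 5204 untreated and 10163 and 11586 treated (1.96-fold, limma adjusted p = 1.25e-06). The death receptors TNFRSF10B (2479 and 2468 untreated, 5462 and 5677 treated, 2.25-fold) and FAS (376 and 382 untreated, 921 and 787 treated, 2.24-fold) rose. MDM2 (1179 and 1253 against 1100 and 935), the feedback ligase of p53, and BBC3, ZMAT3 and RRM2B did not pass, and XPC fell 1.79-fold and TP53I3 1.64-fold. Without the second untreated or the second treated library 2 members fell.

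Detoxification genes moved in both directions, with 12 of 37 tested members up and 7 down. Of the aldo-keto reductases, AKR1C1 went from 3751 and 2657 to 1221 and 991 (2.87-fold lower) and AKR1C2 from 3768 and 2947 to 1284 and 1278 (2.60-fold lower), beside AKR1B1 as given above, while AKR1C3 (3967 and 3657 against 4088 and 4144) did not pass. AKR1C genes are close copies of each other, so their separate values are uncertain. Of 10 NRF2 targets 6 rose, among them HMOX1, heme oxygenase 1, from 306 and 283 to 893 and 944 (3.11-fold, limma adjusted p = 6.94e-07) and GCLM, of glutathione synthesis, from 706 and 851 to 1770 and 1542 (2.13-fold). TXNRD1 and SRXN1 did not pass. CYP1A1, the target of the aryl hydrocarbon receptor, was at 1140 and 907 untreated and 234 and 198 treated (4.71-fold lower, limma adjusted p = 3.94e-08), and CYP1B1, another target, did not pass (611 and 589 against 670 and 555). UGT2B17 fell 5.49-fold from 268 and 244 to 36 and 58. UGT1A6 rose 1.79-fold, and UGT1A genes share exons, which makes their values uncertain.

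Kallikreins and epidermal proteases rose in 4 and fell in 4 of 15 tested members. KLK7 was at 75 and 103 untreated and 331 and 372 treated (3.96-fold higher, limma adjusted p = 6.18e-07), whereas KLK1 fell 1.87-fold and KLK11 1.53-fold. The membrane protease inhibitors SPINT1 and SPINT2 changed in opposite directions. SPINT1 was at 4167 and 4208 untreated and 6191 and 6602 treated (1.53-fold higher), and SPINT2 at 13878 and 13308 untreated and 6138 and 5626 treated (2.31-fold lower). Their target matriptase, ST14, did not pass in the main fit but was called lower after scaling to equal totals. The protease PRSS8 rose 1.58-fold and TMPRSS2 fell 2.02-fold.

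Ribosome biogenesis genes rose in 8 and fell in 8 of 38 tested members (median log2 fold change 0.01), and 22 did not pass. The nucleolar proteins NCL (17933 and 16368 against 18186 and 16485) and NPM1 did not pass, and neither did UBTF, a factor of RNA polymerase I. FBL, the methyltransferase fibrillarin, fell 1.29-fold, and PNO1, of small subunit assembly, fell 2.51-fold from 721 and 629 to 252 and 284 (limma adjusted p = 6.18e-07). NOP10 rose 1.54-fold. Most calls of this list were small and were lost in some alternatives, with 1 to 12 rises and 3 to 10 falls over the 16 alternatives. Rises were 3 without the second untreated library, 3 without the first treated and 2 without the second treated library, and falls were 5, 3 and 5 without the first untreated, the first treated and the second treated library.

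Genes whose symbol starts with LINC were named where their value averaged at least 50. The GENCODE type of those named was lincRNA, except for LINC01128, which is typed as a processed transcript. LINC02154 was at 2 in both untreated libraries and at 125 and 126 in the treated ones (limma adjusted p = 0.000132). It passed the rule only through its treated values, and its fold depends on the 1 added to each value. An antisense gene without a symbol (ENSG00000238178, chromosome X) was at 71 and 104 untreated and at 5 in both treated libraries (limma adjusted p = 1.78e-07), and passed only through its untreated values. These were the 2 called genes with both libraries of a group at 5 or less and both of the other at 50 or more. LINC00520 went from 147 and 135 to 618 and 726 (4.73-fold, limma adjusted p = 4.4e-07), LINC00239 from 349 and 314 to 894 and 952 (2.78-fold) and LINC01929 from 32 and 39 to 111 and 158 (3.67-fold). LINC01128 fell 2.91-fold from 599 and 516 to 166 and 219, LINC02762 3.05-fold from 233 and 159 to 65 and 60, and LINC00324 2.75-fold from 73 and 95 to 38 and 23. LINC02404, which rose, and LINC02593 and LINC00886, which fell, were called too. The calls of LINC02404 and LINC00886 were lost when some single libraries were left out, and that of LINC02593 without any library of the ASCL2 line. Each of these calls was also lost without a mean-variance trend.

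The response was set beside that of the WiNTRLINC1 line for ASCL2 and for the 20 largest changes, since both lines have control libraries of their own. The difference between the responses passed the test (limma, interaction contrast, adjusted over all 20470 genes) for all 21 of these genes. The 20 besides ASCL2 were chosen for their size in the ASCL2 line, which favours such differences. The share that passed over all genes tested is not given here, so the count has no background. ASCL2 itself was at 2540 and 2034 untreated and 805 and 697 treated in the WiNTRLINC1 line. DHRS2, which rose in the ASCL2 line, was there at 3106 and 3201 untreated and 972 and 846 treated, a fall (log2 fold change -1.80, limma adjusted p = 1.03e-08). EREG was at 1159 and 1148 untreated and 1277 and 1464 treated in that line and did not pass (limma adjusted p = 0.137), and GRAMD1B, at 1953 and 1964 untreated and 1746 and 1740 treated, did not pass either (limma adjusted p = 0.34). SMOC2 fell in both lines, there from 3995 and 3895 to 1249 and 1392. HMGA2 rose in both, there from 223 and 251 to 632 and 701. Smaller changes in the same direction were also called there for PNMA6E, PHGR1, ADGRB1, IGFBP3, PCK1, CXCL1 and CCR2.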

How the data were processed

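RNA sequencing values of 8 libraries were used, 4 of them from the ASCL2 line. Per the labels' protocols, RNA was isolated with Trizol, fragmented with RNase III and sequenced on the Ion Proton. The submitters' processing notes list TopHat2 2.0.9, DESeq, Cufflinks and cutadapt, and 3 builds (mm9, hg19 and GRCh37) given without roles. For the counting step, neither the program nor the strand setting is given in the sources used here, so overlapping and antisense genes may share reads. Each gene has a deposited score, a whole number that the values show to be a scaled read count: for example, untreated replicate 1 has 2248 genes at 2 and 1547 at 4 but 0 at 3. Scaled values do not suit a count model.

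Genes that reached 10 in 2 or more of the 4 libraries were tested on log2(value + 1). The test was limma 3.58.1 (R 4.3.3), with a variance that follows the mean level, in a fit of the 4 groups of all 8 libraries without covariates. Residual degrees of freedom were 4 and prior ones 10.36. A call needed a p under 0.05 after Benjamini-Hochberg adjustment over the 20470 genes. Fold changes are on this scale, which understates changes of low genes. Scripts were tested on simulated data. The gene lists and comparisons were chosen with earlier results of these data known, and lists are described by counts and medians without a set test. Named genes were ASCL2, the 10 largest changes per direction at a mean value of at least 100 with no overlap between groups, the 8 per direction at 5000 or more, the 5 per direction among LINC symbols at 50 or more, up to 6 per direction at 5 or less in 1 group and 50 or more in the other, and list members, up to 6 per list by adjusted p and others where their role asked for a value. Symbols matched 39501 of 57736 identifiers, and the rest held 2.34% of the summed value. Among the list symbols, UHRF1, FCGBP, ACACA, BOP1 and PECAM1 matched no identifier. Some genes that the rule names are not reported here. Gene types came from GENCODE version 29, and promoters from RefSeq on GRCh38.p14, with the first listed start of each gene.

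Replicate numbers were checked for pairing. Across 13170 genes, same-numbered libraries deviated with r = -0.145 (ASCL2 line) and 0.267 (WiNTRLINC1 line), so they were not treated as pairs.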

Additional observations from a re-analysis of the deposited data

Results flagged for a closer look

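The responses of the ASCL2 line and of the WiNTRLINC1 line to doxycycline were compared for ASCL2 and the 20 largest changes of the ASCL2 line, by the interaction contrast in limma, and all 21 passed at a Benjamini-Hochberg adjusted p of 0.05. Values are the log2 response in the ASCL2 line minus that in the WiNTRLINC1 line. For ASCL2 the difference was -0.87 (adjusted p = 0.00193), with responses of -2.47 in the ASCL2 line and -1.60 in the other. The other 20 genes were chosen for the size of their change in the ASCL2 line, which favours differences in that direction. No share over all genes tested stands beside this count.

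Among genes that rose in the ASCL2 line, the difference was 4.38 for DKK1, 3.37 for CXCL8, 1.97 for CXCL1, 2.49 for LAMA4, 0.99 for HMGA2, 1.74 for CCR2 and 2.01 for EREG. Of these, HMGA2, CXCL1 and CCR2 also rose in the WiNTRLINC1 line, with log2 responses of 1.49, 0.69 and 0.54. The difference was 4.46 for TEX19 and 4.07 for DHRS2, which fell in the WiNTRLINC1 line, and 3.93 for TDO2. In that line TDO2 was called lower too, but its values were only 3 and 5 untreated and 1 in both treated libraries. DKK1 (2 and 3 untreated, 2 and 5 treated), LAMA4 (16 or less) and CXCL8 (46 or less) were low there as well.

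Among genes that fell, the difference was -3.16 for PNMA6E, -2.27 for PHGR1, -1.50 for ADGRB1, -2.71 for GRAMD1B, -1.25 for SMOC2, -1.73 for IGFBP3 and -1.86 for PCK1. All of these but GRAMD1B also fell in the WiNTRLINC1 line. The log2 responses there were -2.49 for PNMA6E, -0.90 for PHGR1, -1.39 for ADGRB1, -1.58 for SMOC2, -1.05 for IGFBP3 and -0.87 for PCK1. The difference was -4.37 for RANBP3L, -4.04 for PTGS1 and -3.03 for FHL1, which were at 47 or less in all 4 libraries of the WiNTRLINC1 line.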

How the results depend on the processing

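Counts called were recomputed under 16 alternatives, of which 1 was chosen after seeing the data. The 5938 genes called became 3950 without a mean-variance trend, of which 1986 rose, and 3737 without the second treated library, of which 1800 rose. Leaving out 1 library each gave between 3737 and 4431 genes called, between 1800 and 2514 that rose and between 1888 and 2140 that fell. Other alternatives gave between 4294 (no filter) and 7227 genes, and 642 (pseudocount of 10) to 1189 (quantile normalization) genes at 2-fold or more. Rises were 52.6% of calls with the deposited scaling and 45.0% after scaling to equal totals. With a replicate block, which pairs same-numbered libraries, 6263 genes were called, and with the crossed replicate block 7227. ASCL2 fell in all of them, between -2.35 and -2.59. Of 243 genes followed singly, 182 were called in the main fit, and 10 of these lost the call in some alternative. Other list members were followed only through the counts of their lists. Of the genes followed singly, 12 that were not called in the main fit were called in some alternative. These were AGR2, E2F7, ETV5, HOXB13, KLF5, KRT8, MDM2, MUC5AC, ST14, TAP1, TCF7L2 and TXNRD1. The difference between the lines was called for 17 to 21 of 21 genes, and could not be computed in the fit of 4 libraries alone.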

Other observations

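Processed pseudogenes, copies of messenger RNAs in the genome, were called upward more often than downward, with 426 rises and 145 falls among 3837 tested and a median log2 fold change of 0.16. Among 13426 protein-coding genes there were 2502 rises and 2344 falls and the median was -0.0043. Antisense genes showed 23 rises and 98 falls among 866 tested (median -0.22), and lincRNAs 49 rises and 95 falls among 711 (median -0.19). Reads of a pseudogene and its parent, and of an antisense gene and its partner, may not have been told apart by the authors' counting.

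By abundance, genes averaging 5000 or more were called upward in 239 and downward in 151 of 724 cases, whereas genes under 30 were called upward in 77 and downward in 210 of 4276 cases. Of the genes tested, 397 passed the rule only through the untreated and 172 only through the treated libraries. By chromosome the share of genes called ran from 24.8% on X (793 tested) to 33.7% on chromosome 16 (882 tested), leaving out the 28 genes tested on Y.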
